A study of Mus musculus with 25 samples.

Results

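The genes described are those of the killing machinery and of the inflammatory output of CD8+ T cells: the granzymes Gzma, Gzmb and Gzmk, the pore protein gene Prf1, the granule gene Nkg7, the interferon gamma gene Ifng and the chemokine genes Ccl3, Ccl4 and Ccl5. Their loci were followed in an ATAC-seq count table of 13527 peaks and 25 libraries. A peak was a member when its midpoint had 1 of these 9 genes as the nearest protein-coding gene start, taken at the outermost annotated 5′ end of the gene (GENCODE vM39, genome build GRCm39) or lay in the body of that gene, which gave 27 of the 13527 peaks. Gzma had 4 peaks, Gzmb 3, Gzmk 3, Prf1 4, Nkg7 1, Ifng 6, and Ccl3, Ccl4 and Ccl5 2 each. Peaks are named by the distance of their midpoint from the start shared by the largest number of coding transcripts, or for Gzmk, whose 2 coding transcripts start at different bases, from the inner start at chr13:113317431, and "promoter" marks a midpoint within 1000 bases of it. By the annotation 18 midpoints lay between genes, 8 in an intron and 1 in an exon outside the coding sequence. The assignment by distance does not show which gene a peak acts on: both peaks downstream of Gzma lay in an intron of Cdc20b, and the Prf1 peak 30.3 kb downstream lay in an intron of Pald1. The 3 Gzmk peaks lay in an intron of a long Gzmk transcript model. Measured to that model's outer start Esm1 was the nearer gene, so that these peaks were members by lying in the body of Gzmk.

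All libraries came from spleen and lymph nodes of young adult female C57BL/6 mice, the cells being CD8+ T cells stained with an OVA:Kb tetramer and called T_FGS, for fetus and graft specific. The OVA peptide is carried by 2W-OVA.BALB/c males, in which an actin promoter drives the model antigen 2W-OVA, so that it was met on a skin graft or on the fetuses that inherited it. Naive mice (3 libraries) had met neither. Sensitized mice (4 libraries) had rejected a skin graft of the paternal strain about a month before. N+P mice were mated with such males without a graft, S+P mice after rejecting one, and their cells were taken within days of birth and sorted by PD1 and CD73. N+P C1 (3 libraries) and S+P C4 (4 libraries) are the PD1-negative cells, N+P C5 (3 libraries) and S+P C5 (4 libraries) are PD1+CD73+, and S+P C7 (4 libraries) is PD1+CD73-. For Naive and Sensitized cells the labels name no gate on PD1 or CD73. The study's methods describe cell suspensions made from individual mice, but the labels do not name the animal of each library or say whether cells were pooled. The p-values therefore measure the spread between libraries. The main fit has group as its only term, so that between subsets that may share mice it ignores any pairing.

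Cytotoxic T cells kill by releasing granules at the contact with a target. Perforin, the product of Prf1, makes pores, and granzymes, which are serine proteases, enter the target and cut proteins there. Granzyme B cuts after aspartate and activates caspases, granzymes A and K cut after basic residues, and NKG7 is a membrane protein of the granule. Interferon gamma is the cytokine by which T cells activate macrophages and raise antigen presentation, and CCL3, CCL4 and CCL5 are chemokines that draw other leukocytes. In naive CD8+ T cells many of these loci are closed, and antigen experience opens promoters and distal elements around them. ATAC-seq reads such openness from where a transposase can cut.

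Stretches of 200 bases from 6 member peaks are printed. Among them are the Gzmk promoter, with the largest change between Sensitized and Naive, and the distal Ifng peak, which ran the opposite way. Some members not printed changed more than the Gzmb and Ifng promoters. The stretches were read from GRCm39, run 5′ to 3′ on the strand of the gene and overlap no annotated exon. For Gzmb (chr14:56499718-56499917, minus strand) and Ifng (chr10:118276751-118276950, plus strand) the stretch ends next to the start used here, and for Gzmk (chr13:113317456-113317655, minus strand) it ends a short way before it. The others are the middle of the Gzma peaks upstream (chr13:113241357-113241556, minus strand) and downstream (chr13:113227168-113227367, minus strand) and of the distal Ifng peak (chr10:118469552-118469751, plus strand). Capitals mark matches to the AP-1 letters TGANTCA and the RUNX letters TGTGGTT, on either strand.
Gzmk promoter: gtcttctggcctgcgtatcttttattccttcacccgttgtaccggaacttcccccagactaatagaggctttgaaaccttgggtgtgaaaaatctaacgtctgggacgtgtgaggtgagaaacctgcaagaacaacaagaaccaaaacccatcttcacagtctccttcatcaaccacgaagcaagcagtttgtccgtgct
Gzma 3.93 kb upstream: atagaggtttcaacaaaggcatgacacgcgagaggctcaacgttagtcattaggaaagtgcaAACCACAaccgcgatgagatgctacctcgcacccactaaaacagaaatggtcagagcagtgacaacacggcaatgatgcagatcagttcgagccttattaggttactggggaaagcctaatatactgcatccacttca
Gzma 10.3 kb downstream: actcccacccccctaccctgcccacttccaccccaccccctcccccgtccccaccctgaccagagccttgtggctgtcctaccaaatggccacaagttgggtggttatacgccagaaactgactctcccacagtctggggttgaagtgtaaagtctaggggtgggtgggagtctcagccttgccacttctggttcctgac
Gzmb promoter: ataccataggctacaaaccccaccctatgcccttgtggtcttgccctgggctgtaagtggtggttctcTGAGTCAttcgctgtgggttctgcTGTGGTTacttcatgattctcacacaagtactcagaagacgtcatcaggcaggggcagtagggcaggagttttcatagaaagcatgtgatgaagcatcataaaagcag
Ifng promoter: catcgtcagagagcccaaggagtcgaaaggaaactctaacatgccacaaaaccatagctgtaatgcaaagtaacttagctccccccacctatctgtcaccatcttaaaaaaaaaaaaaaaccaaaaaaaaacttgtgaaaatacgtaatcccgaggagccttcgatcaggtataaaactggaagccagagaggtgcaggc
Ifng 193 kb downstream: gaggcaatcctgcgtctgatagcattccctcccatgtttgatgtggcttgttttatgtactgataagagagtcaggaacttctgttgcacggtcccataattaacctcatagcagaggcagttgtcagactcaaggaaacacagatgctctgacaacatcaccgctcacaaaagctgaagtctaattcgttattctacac

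Total counts per library ranged from 2430890 to 25419715, the shallowest being S+P C4 replicate 1. Counts were divided by the size factor of the library and are called normalized counts, listed in the order of the replicate numbers. A peak was called opening or closing when DESeq2's Wald test gave it a log2 fold change beyond 0.9 in size at an adjusted p under 0.1, the thresholds of the study. The Sensitized libraries did not form a tight group. By the correlation of log2 counts over all peaks that are not members, the group closest to replicate 3 was N+P C5 (r = 0.97), as it was for replicate 4 (r = 0.96) and for S+P C4 replicate 1 (r = 0.92). Replicate 1 was closest to S+P C4 (r = 0.93). Counts of member calls that rest on Sensitized are therefore given with all libraries, without replicates 3 and 4, and without replicates 1 and 2, and single values are given again where a call was lost. Values of the gene lists were computed with all libraries alone. Of the defining genes of CD8+ T cells, Cd8a, Cd3e, Cd3d and Cd3g had 11 peaks and Cd8b1 had none. None of the 5 B cell genes and none of the 5 myeloid genes looked for had a peak in the table. Of the NK cell genes Ncr1 had none, and of the CD4 and regulatory T cell genes Cd4 alone had peaks, 2 in number. Their summed normalized counts ran from 447.5 to 517.3 in Naive, 508 to 633 in N+P C1 and 479 to 516 in N+P C5. They ran from 236 to 510 in Sensitized, 269 to 531 in S+P C4, 279 to 456 in S+P C5 and 278 to 431 in S+P C7. Of the 11 CD8+ T cell peaks 1, near Cd8a, opened in Sensitized against Naive (1.44 ± 0.42, adjusted p = 0.00684) and in S+P C7 against Sensitized (0.94 ± 0.39, adjusted p = 0.0365), beside 7.22% and 3.84% of all peaks. The other NK cell genes, Klrb1c and Nfil3, had 10 peaks, whose summed normalized counts ran from 4815 to 5537 in Naive, 5071 to 5390.0 in Sensitized, 5577 to 6036 in N+P C1, 5621 to 6129 in N+P C5, 5502 to 6044 in S+P C4, 5456 to 6084 in S+P C5 and 6132 to 6626 in S+P C7, where each library was above every library of the other 6 groups. Of these 10 peaks 3 opened in Sensitized against Naive (all peaks 7.22%), with a median log2 fold change of 0.07 over the 10, among them 1 of Nfil3 (2.30 ± 0.41, adjusted p = 6.06e-07) and 1 of Klrb1c (1.17 ± 0.29, adjusted p = 0.000991). The same Nfil3 peak opened against Sensitized in S+P C5 (2.26 ± 0.34, adjusted p = 2.86e-09) and S+P C7 (1.55 ± 0.34, adjusted p = 4.56e-05).

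Most of the granzyme and chemokine peaks opened with sensitization, and none was called after pregnancy alone. Sensitized against Naive, 16 of the 27 member peaks were called opening and 0 closing, beside 7.22% opening and 1.40% closing over all 13527 peaks. The median log2 fold change was 1.65 over the members and -0.01 over all peaks. The 16 held 4 of 4 peaks of Gzma, 2 of 2 of Ccl4 and of Ccl5, 2 of 3 of Gzmk, 3 of 6 of Ifng, 1 of 2 of Ccl3, 1 of 3 of Gzmb and 1 of 4 of Prf1, and the peak of Nkg7 was not among them. The same 16 peaks were called opening in S+P C5 against N+P C5 and in S+P C4 against N+P C1, which share no library, although libraries of like number may come from the same mice, so that the comparisons are not independent. In those comparisons 19 of 27 members opened and 1 closed (all peaks 10.3% and 6.97%), and 18 opened and 0 closed (all peaks 9.62% and 2.99%). The authors' lists of peaks reproducible within a group held none of the 16 in the Naive, N+P C1 or N+P C5 list, and none in the S+P C4 list either. Bulk libraries cannot tell fewer cells with an open locus from less openness in each cell. The map of group means relative to Naive gives all 27 peaks.

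**Figure D1:**
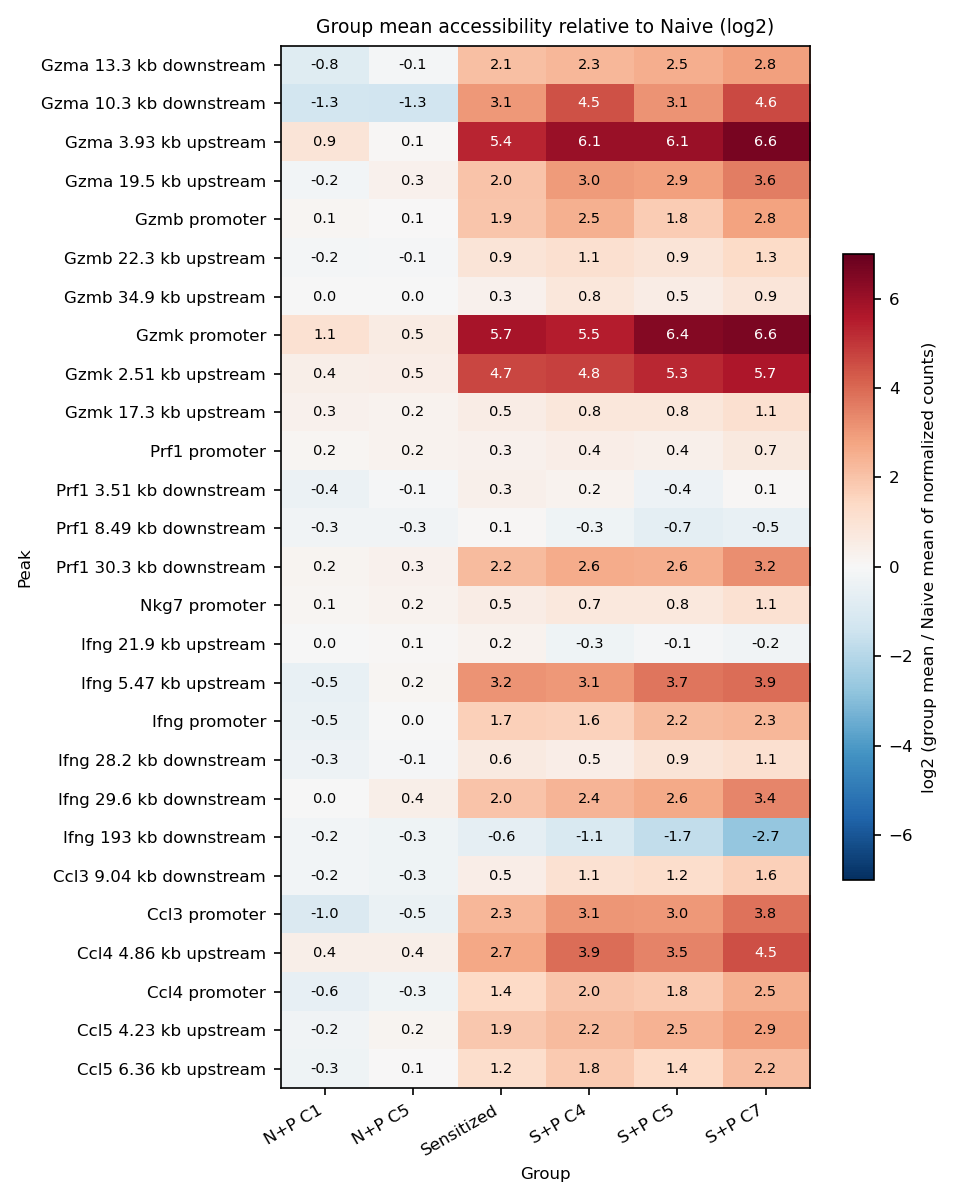
Each row is a member peak and each column a group, and the number and colour give the log2 ratio of the group mean of normalized counts to the Naive mean (red higher, blue lower). The N+P columns stay near 0 apart from a few weak peaks, while Gzma 3.93 kb upstream and the Gzmk promoter are deepest red in every Sensitized and S+P column, and Ifng 193 kb downstream is blue.

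Gzma, which encodes a trypsin-like granzyme, had no peak at its start, and all 4 of its peaks opened. The nearest peak, 3.93 kb upstream (chr13:113241268-113241645), held 2.75, 3.93 and 3.79 normalized counts in Naive, 0, 12.3 and 7.54 in N+P C1 and 6.04, 2.74 and 2.40 in N+P C5. Sensitized libraries held 250.3, 228, 43.6 and 48.3, and S+P C4 libraries 68.0, 221, 318 and 323. S+P C5 libraries held 211, 298, 212 and 208, and S+P C7 libraries 309.6, 346, 355 and 385. It was close to absent in the 9 libraries of mice without a graft, and N+P C1 replicate 1 had no read there, where 3 reads would give 3.32 normalized counts. Sensitized replicates 1 and 2 were about 5 times as high as replicates 3 and 4, and all 4 were above every Naive and N+P library. The log2 fold change was 5.32 ± 0.70 (SE, adjusted p = 2.88e-12) for Sensitized against Naive and 5.92 ± 0.72 (adjusted p = 1.28e-14) for S+P C5 against N+P C5. The Naive level rests on a few reads per library, so that the fold has a wide error.

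Normalized counts at the Gzma peak 10.3 kb downstream (chr13:113226851-113227684) were 11.0, 18.7 and 27.8 in Naive, 5.53, 10.1 and 7.54 in N+P C1 and 17.1, 0 and 6.01 in N+P C5. They were 297, 206, 55.0 and 81.4 in Sensitized and 184, 446, 542 and 533 in S+P C4. The corresponding counts were 80.8, 185, 164 and 247 in S+P C5 and 249, 449, 567 and 592 in S+P C7. N+P C5 replicate 2 had no read, and 3 reads would give 4.11 there. Of the 27 members this peak had the largest log2 differences between S+P C5 and both other S+P subsets, with every S+P C5 library below every S+P C7 library and below all of S+P C4 but its replicate 1. It closed in S+P C5 against S+P C4 (-1.34 ± 0.50, adjusted p = 0.0627) and opened in S+P C7 against S+P C5 (1.46 ± 0.50, adjusted p = 0.0519). Fitted on the compared groups alone with the replicate number as a block, these were -1.33 ± 0.18 (adjusted p = 3.51e-11) and 1.49 ± 0.14 (adjusted p = 5.74e-24). The smaller errors mix the block with a spread estimated from fewer libraries, and the part of each was not tested. Against Naive, Sensitized rose by 3.03 ± 0.56 (adjusted p = 2.13e-06) on the log2 scale.

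The Gzma peak 13.3 kb downstream (chr13:113223795-113224672) held 92.3, 70.8 and 102 normalized counts in Naive, 54.2, 49.3 and 45.2 in N+P C1 and 87.5, 68.5 and 86.6 in N+P C5. The Sensitized values were 508, 574, 202 and 252, and the S+P C4 values 286, 398, 611 and 471. For S+P C5 the values were 413, 692, 518 and 415, and for S+P C7 607, 621, 701 and 611. Here the subsets of S+P mice overlapped. Sensitized against Naive gave a log2 fold change of 2.11 ± 0.30 (adjusted p = 1.62e-10), and S+P C7 against Sensitized 0.73 ± 0.27 (adjusted p = 0.0193), under the fold threshold. At the Gzma peak 19.5 kb upstream (chr13:113256580-113257527), Naive libraries held 33.1, 49.2 and 44.2 normalized counts, N+P C1 libraries 39.8, 33.6 and 37.7 and N+P C5 libraries 58.4, 41.1 and 56.5. The Sensitized libraries had 246, 234, 82.0 and 117 and the S+P C4 libraries 231, 340.1, 361 and 377. The S+P C5 libraries had 267, 396, 261 and 305 and the S+P C7 libraries 489, 502, 446 and 559. Every S+P C7 library was above every library of the other 6 groups. Its log2 fold change was 1.99 ± 0.31 (adjusted p = 4.42e-09) for Sensitized against Naive, 0.96 ± 0.27 (adjusted p = 0.0184) for S+P C4 against Sensitized and 1.56 ± 0.26 (adjusted p = 7.86e-08) for S+P C7 against Sensitized. Without Sensitized replicates 3 and 4 the S+P C7 value was 1.06 ± 0.20 (adjusted p = 3.83e-06) and the S+P C4 value 0.47 ± 0.20 (adjusted p = 0.175).

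Gzmb encodes the granzyme that starts apoptosis through caspases. Its promoter peak (chr14:56499456-56500187) held 88.2, 57.0 and 65.0 normalized counts in Naive, 53.1, 61.7 and 113 in N+P C1 and 86.5, 50.7 and 80.6 in N+P C5. Sensitized had 475, 337, 123 and 124, and S+P C4 had 167, 354, 511 and 565. S+P C5 had 220.4, 216, 198 and 320.2, and S+P C7 had 441, 397, 479 and 622. The promoter was low but not absent in Naive, and S+P C5 stayed below S+P C7 in each of the 4 number pairs. Sensitized against Naive it rose by 1.92 ± 0.42 (adjusted p = 8.21e-05) on the log2 scale, a call that was lost when Sensitized replicates 1 and 2 were left out (0.82 ± 0.37, adjusted p = 0.141). S+P C7 against S+P C5 it rose by 1.02 ± 0.38 (adjusted p = 0.086), and by 1.03 ± 0.12 (adjusted p = 3.92e-15) with the number as a block. S+P C5 against Sensitized the log2 fold change was -0.15 ± 0.38 (adjusted p = 0.794), and without Sensitized replicates 1 and 2 it turned to 0.95 ± 0.34 (adjusted p = 0.0132), a call opening. Counts after normalization at the Gzmb peak 22.3 kb upstream (chr14:56521674-56522307) were 153, 149.5 and 175 in Naive, 129, 156 and 143 in N+P C1 and 142, 136 and 168 in N+P C5. They came to 427, 321, 212 and 212 in Sensitized and 299, 313, 362 and 419 in S+P C4. They came to 294, 315, 285 and 316 in S+P C5 and to 377, 317, 403 and 520.0 in S+P C7. All 4 Sensitized libraries were above all 3 Naive ones, with a fold just short of a call (0.88 ± 0.22, adjusted p = 0.000859), and S+P C5 against N+P C5 was called (1.02 ± 0.22, adjusted p = 2.58e-05). The peak 34.9 kb upstream was called in none of the 12 comparisons, with Naive libraries at 186 to 241 and S+P C7 libraries at 323 to 432.

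Gzmk, a granzyme typical of effector memory cells, gave the largest change of the 27 between Sensitized and Naive. The Gzmk promoter (chr13:113317185-113317919) held 4.13, 3.93 and 5.05 normalized counts in Naive, 7.74, 10.1 and 9.42 in N+P C1 and 2.01, 12.3 and 4.81 in N+P C5. Sensitized libraries held 326, 415, 80.8 and 117, and S+P C4 libraries 88.5, 228, 277 and 209.8. S+P C5 libraries held 262, 556, 422 and 279.9, and S+P C7 libraries 364, 497, 441 and 383. It went from a few counts in every Naive and N+P library to at least 80.8 in every Sensitized and S+P library. The log2 fold change was 5.72 ± 0.59 (adjusted p = 4.86e-19) for Sensitized against Naive and 5.96 ± 0.58 (adjusted p = 6.93e-22) for S+P C5 against N+P C5. In S+P C5 against S+P C4 it was 0.90 ± 0.42 (adjusted p = 0.185), which became a call with the number as a block, 0.92 ± 0.21 (adjusted p = 0.000202). Normalized counts at the Gzmk peak 2.51 kb upstream (chr13:113319379-113320510) were 31.7, 6.88 and 10.1 in Naive, 17.7, 20.2 and 26.4 in N+P C1 and 21.1, 28.8 and 16.8 in N+P C5. They were 542, 648, 181 and 276 in Sensitized and 238, 365, 573 and 586 in S+P C4. The corresponding counts were 492, 834, 663 and 563 in S+P C5 and 808, 880.1, 840.0 and 747 in S+P C7. It followed the promoter, with 1 Naive library at 31.7 counts above the rest of its group. Sensitized against Naive gave 4.75 ± 0.43 (adjusted p = 4.14e-25). At the peak 17.3 kb upstream, called in no comparison, the Naive libraries held 190.1 to 194 and the S+P C7 libraries 363 to 443.

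Prf1 and Nkg7 differed from the granzymes in that their starts were already accessible in Naive cells. The Prf1 promoter (chr10:61132377-61133949) held 625, 601 and 714 normalized counts in Naive, 684, 749 and 725 in N+P C1 and 693, 729 and 837 in N+P C5. The Sensitized values were 879, 862, 700.0 and 763, and the S+P C4 values 715, 833, 1028 and 949.5. For S+P C5 the values were 857, 814, 766 and 920.2, and for S+P C7 1119, 962, 1022 and 1126. Sensitized and Naive overlapped by 1 library, replicate 3 of Sensitized, and differed by 0.30 ± 0.11 (adjusted p = 0.0436) on the log2 scale, and all S+P C7 libraries stood above all Sensitized ones (0.41 ± 0.10, adjusted p = 0.000487). At the Nkg7 promoter (chr7:43085353-43088531), Naive libraries held 1171, 1089 and 1296 normalized counts, N+P C1 libraries 1174, 1361 and 1321 and N+P C5 libraries 1278, 1423 and 1440.0. The Sensitized libraries had 1893, 2045, 1395 and 1548 and the S+P C4 libraries 1596, 1928, 2214 and 2214. The S+P C5 libraries had 1868, 2075, 1900.0 and 2161 and the S+P C7 libraries 2296, 2431, 2528 and 2613. All 4 Sensitized libraries were above all 3 Naive ones and all 4 S+P C7 libraries above every library of the other groups. In log2 terms the difference was 0.54 ± 0.12 (adjusted p = 0.000116) for Sensitized against Naive and 0.30 ± 0.11 (adjusted p = 0.0737) for S+P C7 against S+P C5, both under the fold threshold. Per 1000 bases of peak, the Naive mean was 411 normalized counts at the Prf1 promoter and 373 at the Nkg7 promoter, beside 95.7 at the Gzmb promoter and 5.95 at the Gzmk promoter. In S+P C7 the same means were 672, 776, 662 and 573, a far narrower spread between these promoters than in Naive.

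The distal Prf1 peaks went different ways. The Prf1 peak 30.3 kb downstream (chr10:61163369-61164306) held 24.8, 48.2 and 90.2 normalized counts in Naive, 81.8, 49.3 and 52.8 in N+P C1 and 90.5, 45.2 and 66.1 in N+P C5. Sensitized had 371, 329, 137 and 190.4, and S+P C4 had 242, 282, 355 and 462. S+P C5 had 302, 295, 288 and 389.6, and S+P C7 had 415, 468, 547 and 628. All Sensitized and S+P libraries were above all Naive and N+P ones, and Sensitized exceeded Naive by 2.20 ± 0.36 (adjusted p = 2.94e-08) on the log2 scale. The peaks 3.51 kb and 8.49 kb downstream were called in no comparison. At 3.51 kb the Sensitized libraries held 191 to 289 and the S+P C5 libraries 129 to 152, a difference of -0.70 ± 0.16 (adjusted p = 0.000192) on the log2 scale. At 8.49 kb the ranges were 577 to 828 and 292 to 453, with -0.72 ± 0.14 (adjusted p = 1.12e-05). Both values passed the p threshold and not the fold threshold, and without Sensitized replicates 3 and 4 both passed the fold threshold too (-0.92 ± 0.17, adjusted p = 6.03e-06 and -0.91 ± 0.16, adjusted p = 9.64e-07).

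**Figure D2:**
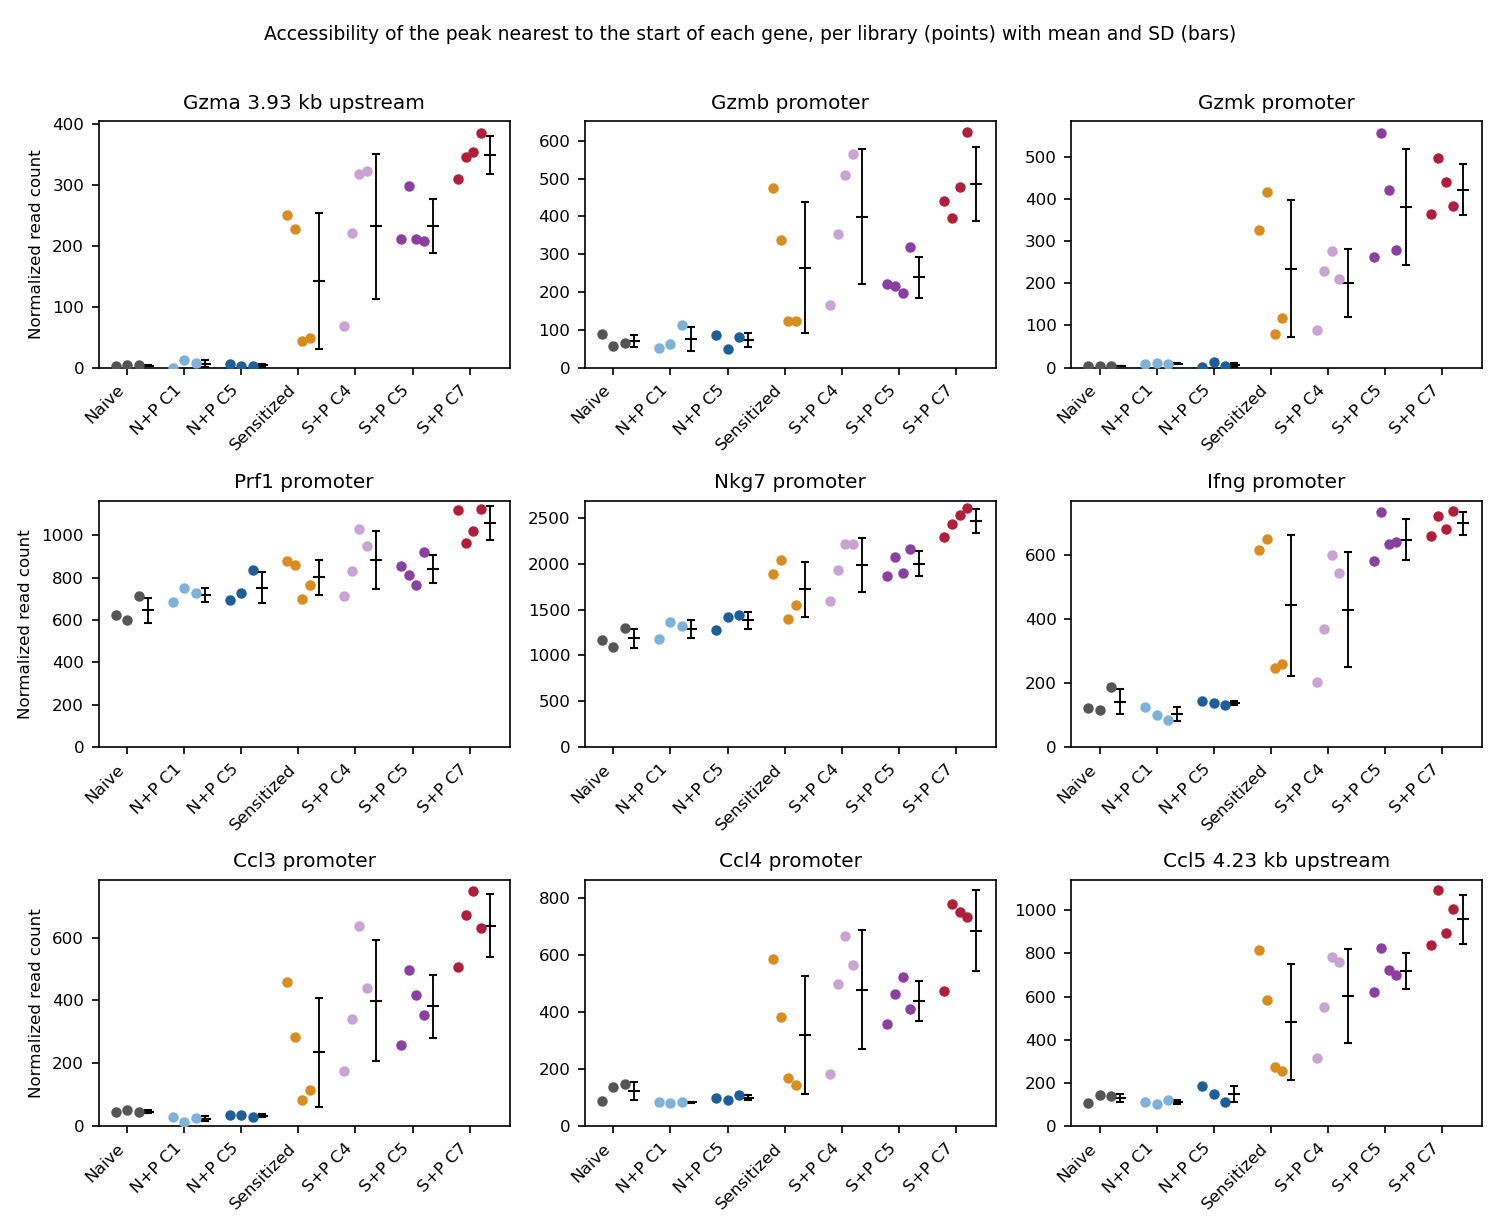
For the member peak nearest to the start of each of the 9 genes, points give the normalized count of every library by group and the black bar gives the group mean with its SD. Naive and N+P libraries lie near the floor at Gzma, Gzmk and Ccl3 and at a high level at Prf1 and Nkg7, and in every panel the Sensitized libraries split into replicates 1 and 2 above replicates 3 and 4.

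At Ifng the 6 peaks fell into those that opened, those that hardly moved and 1 that closed. Counts after normalization at the Ifng promoter (chr10:118276462-118277337) were 123, 114 and 186 in Naive, 126, 98.7 and 82.9 in N+P C1 and 144, 138 and 129.9 in N+P C5. They came to 617, 649.7, 248 and 258 in Sensitized and 204, 369, 601 and 544 in S+P C4. They came to 582, 736, 636 and 643 in S+P C5 and to 659, 722, 683 and 739 in S+P C7. Sensitized replicates 3 and 4 lay above the Naive libraries but nearer to them than to replicates 1 and 2, and the 8 libraries of S+P C7 and S+P C5 were all high. Sensitized against Naive gave 1.65 ± 0.32 (adjusted p = 5.19e-06), which was lost when Sensitized replicates 1 and 2 were left out (0.83 ± 0.27, adjusted p = 0.0286). S+P C5 against N+P C5 gave 2.24 ± 0.32 (adjusted p = 5.71e-11), and S+P C5 against Sensitized 0.55 ± 0.29 (adjusted p = 0.142).

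The Ifng peak 5.47 kb upstream (chr10:118271064-118271894) held 19.3, 43.3 and 66.9 normalized counts in Naive, 46.5, 28.0 and 15.1 in N+P C1 and 55.3, 34.3 and 55.3 in N+P C5. Sensitized libraries held 629, 560.2, 173 and 182, and S+P C4 libraries 184, 275, 532 and 449. S+P C5 libraries held 529.6, 666, 516 and 604, and S+P C7 libraries 589, 693, 732 and 606. All Sensitized libraries were above all Naive ones, and S+P C7 overlapped S+P C5. It was the Ifng peak with the largest rise, 3.13 ± 0.43 (adjusted p = 3.5e-11) in Sensitized against Naive. Normalized counts at the Ifng peak 29.6 kb downstream (chr10:118306252-118306922) were 37.2, 55.1 and 71.9 in Naive, 75.2, 31.4 and 56.5 in N+P C1 and 70.4, 80.9 and 63.7 in N+P C5. They were 343, 286, 101 and 128 in Sensitized and 149.7, 253, 327 and 418 in S+P C4. The corresponding counts were 319, 399.5, 279.9 and 374 in S+P C5 and 524, 674, 520.3 and 578 in S+P C7. All S+P C7 libraries were above all S+P C5 libraries. The log2 fold change was 1.95 ± 0.37 (adjusted p = 3.7e-06) for Sensitized against Naive and 1.42 ± 0.33 (adjusted p = 0.000133) for S+P C7 against Sensitized, which fell under the fold threshold without Sensitized replicates 3 and 4 (0.87 ± 0.30, adjusted p = 0.0238). The neighbouring peak 28.2 kb downstream (chr10:118304777-118305505) held 241, 206 and 282 normalized counts in Naive, 181, 178 and 218 in N+P C1 and 205, 208 and 270.5 in N+P C5. The Sensitized values were 419.9, 489.6, 317 and 268, and the S+P C4 values 242, 362, 446 and 318. For S+P C5 the values were 462, 502, 445 and 428, and for S+P C7 481, 623, 502 and 484. Sensitized replicate 4 lay within the Naive range here. It changed less, by 0.61 ± 0.20 (adjusted p = 0.016) in Sensitized against Naive, and was called in S+P C5 against N+P C5 alone (1.01 ± 0.20, adjusted p = 3.81e-06). The peak 21.9 kb upstream was called nowhere, with Naive libraries at 575 to 753, Sensitized at 720.3 to 862 and S+P C7 at 512 to 609.7.

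At the distal Ifng peak 193 kb downstream (chr10:118469223-118470080), Naive libraries held 1098, 1136 and 1247 normalized counts, N+P C1 libraries 872, 1016 and 1121 and N+P C5 libraries 778, 1021 and 1073. The Sensitized libraries had 474, 674, 984 and 900.3 and the S+P C4 libraries 817, 628, 365 and 423. The S+P C5 libraries had 491, 260.2, 393 and 237 and the S+P C7 libraries 265, 136, 149 and 151. It ran against most other members: highest in Naive and falling to its lowest in S+P C7, whose 4 libraries were below every library of the groups except S+P C5. It closed in S+P C5 against Sensitized (-1.13 ± 0.26, adjusted p = 0.000394), in S+P C7 against Sensitized (-2.10 ± 0.27, adjusted p = 4.2e-13), in S+P C5 against N+P C5 (-1.46 ± 0.28, adjusted p = 2.26e-06) and between S+P C7 and S+P C5 (-0.98 ± 0.27, adjusted p = 0.00934). Without Sensitized replicates 3 and 4 the S+P C7 value was -1.70 ± 0.30 (adjusted p = 1.1e-06) and the S+P C5 value -0.72 ± 0.30 (adjusted p = 0.121). It lies far from Ifng, and the assignment rests on distance alone. Per 1000 bases it was the most accessible member in Naive (1352) and the least in S+P C7 (204).

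**Figure D3:**
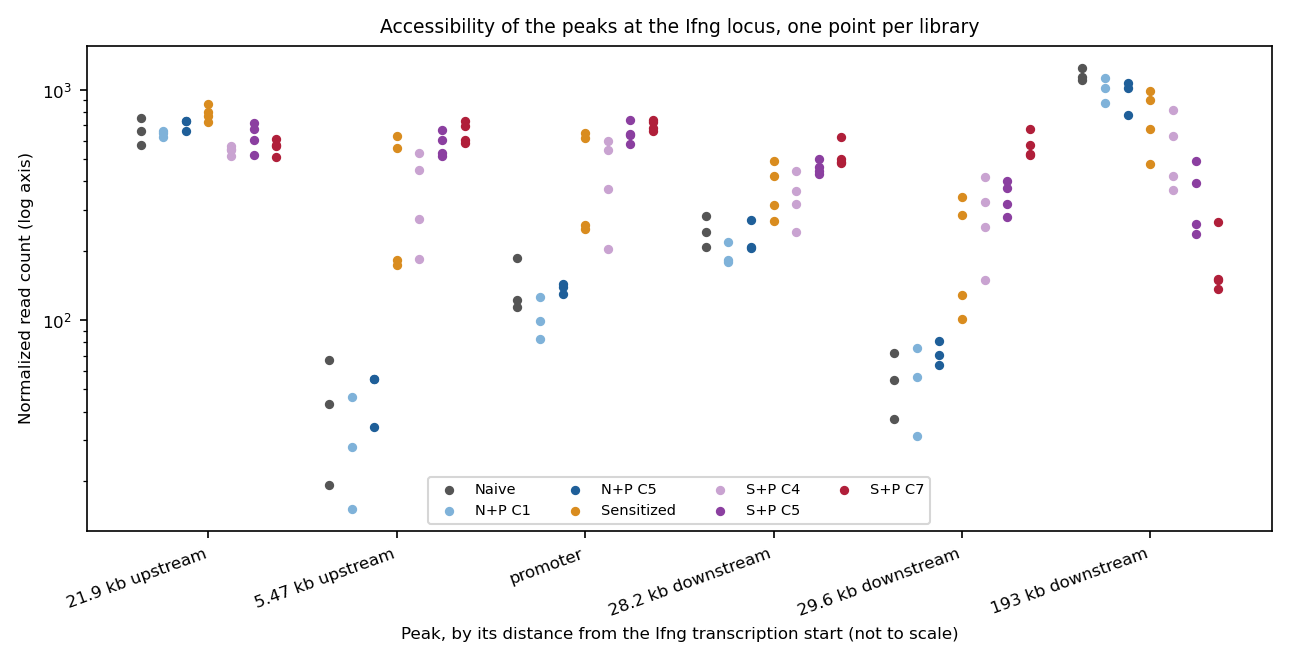
Normalized counts on a log axis for the 6 peaks assigned to Ifng, 1 point per library and 1 colour per group, ordered by their distance from the gene start. The promoter, the peak 5.47 kb upstream and the peak 29.6 kb downstream rise from the Naive and N+P libraries to S+P C7, and the peak 193 kb downstream falls from 1098 or more in Naive to 265 or less in S+P C7.

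The chemokine genes Ccl3 and Ccl4, neighbours on chromosome 11 that activated T cells transcribe quickly, opened at promoter and distal peaks. The Ccl3 promoter (chr11:83539935-83540777) held 44.1, 51.1 and 43.5 normalized counts in Naive, 28.8, 14.6 and 26.4 in N+P C1 and 36.2, 35.6 and 27.7 in N+P C5. Sensitized had 459, 284, 82.6 and 116, and S+P C4 had 177, 340.1, 638 and 439.9. S+P C5 had 257, 496, 418 and 353, and S+P C7 had 506, 671, 747 and 629. N+P libraries were all below the Naive ones. The log2 fold change was 2.35 ± 0.44 (adjusted p = 2.08e-06) for Sensitized against Naive and 1.44 ± 0.39 (adjusted p = 0.00115) for S+P C7 against Sensitized, the latter a call that was lost without Sensitized replicates 3 and 4 (0.78 ± 0.34, adjusted p = 0.0853). Counts after normalization at the Ccl3 peak 9.04 kb downstream (chr11:83530765-83531532) were 322, 290.1 and 319 in Naive, 294, 262 and 254 in N+P C1 and 252, 236 and 283 in N+P C5. They came to 626, 487, 291 and 298 in Sensitized and 402, 629.6, 819 and 747 in S+P C4. They came to 688, 779, 745 and 688 in S+P C5 and to 868, 1067, 929.5 and 1019 in S+P C7. Sensitized replicates 3 and 4 were at the Naive level here, and all libraries of S+P C5 and of S+P C7 were above all Sensitized ones. Sensitized against Naive was not called (0.46 ± 0.22, adjusted p = 0.153), S+P C5 against Sensitized was under the fold threshold (0.77 ± 0.20, adjusted p = 0.00184) and S+P C7 against Sensitized was called (1.19 ± 0.20, adjusted p = 7.33e-08). Without Sensitized replicates 3 and 4 this last value was under the fold threshold too, 0.80 ± 0.17 (adjusted p = 0.000121).

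The Ccl4 promoter (chr11:83552897-83553611) held 88.2, 137 and 147 normalized counts in Naive, 86.3, 80.8 and 82.9 in N+P C1 and 99.6, 90.5 and 108 in N+P C5. Sensitized libraries held 587, 384, 168 and 146, and S+P C4 libraries 184, 499.8, 668 and 565. S+P C5 libraries held 359, 464, 525 and 410.5, and S+P C7 libraries 475, 781, 752 and 736. Sensitized replicate 4 lay within the Naive range. It rose by 1.37 ± 0.38 (adjusted p = 0.0036) on the log2 scale for Sensitized against Naive, a call lost without Sensitized replicate 1, as was that of the Ccl5 peak 6.36 kb upstream. Without replicates 1 and 2 the Ccl4 promoter gave 0.32 ± 0.32 (adjusted p = 0.564) and the Ccl5 peak 0.57 ± 0.23 (adjusted p = 0.0949). Normalized counts at the Ccl4 peak 4.86 kb upstream (chr11:83548110-83548929) were 26.2, 19.7 and 15.1 in Naive, 23.2, 26.9 and 30.1 in N+P C1 and 28.2, 16.4 and 36.1 in N+P C5. They were 257, 153, 51.0 and 71.0 in Sensitized and 163, 241, 447 and 373 in S+P C4. The corresponding counts were 180.3, 286, 217 and 229.9 in S+P C5 and 378, 497, 449 and 526 in S+P C7. It was called in 6 of the 12 comparisons: Sensitized against Naive (2.74 ± 0.44, adjusted p = 1.96e-08), S+P C4 against Sensitized (1.21 ± 0.37, adjusted p = 0.0409), S+P C7 against Sensitized (1.80 ± 0.37, adjusted p = 1.41e-05), S+P C7 against S+P C5 (1.02 ± 0.37, adjusted p = 0.0771), and both comparisons of S+P with N+P subsets. The S+P C4 call against Sensitized was lost without Sensitized replicates 3 and 4 (0.59 ± 0.32, adjusted p = 0.346) and with the number as a block (1.41 ± 0.57, adjusted p = 0.254). With the number as a block the value for S+P C7 against S+P C5 was 1.04 ± 0.12 (adjusted p = 3.57e-15).

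Ccl5, a chemokine that memory CD8+ T cells keep as ready mRNA, had no peak at the start used by 2 of its 3 coding transcripts. The peak 4.23 kb upstream (chr11:83424874-83426270), at the start of the third transcript, held 109, 145 and 140.1 normalized counts in Naive, 112, 101 and 119 in N+P C1 and 186, 149 and 109 in N+P C5. The Sensitized values were 816, 584, 272 and 254, and the S+P C4 values 316, 552, 782 and 761. For S+P C5 the values were 623, 826, 724 and 700.1, and for S+P C7 838, 1091, 895 and 1007. All Sensitized libraries were above all Naive and N+P libraries, and all S+P C7 libraries were above all S+P C5 ones. Sensitized against Naive gave 1.87 ± 0.32 (adjusted p = 1.44e-07), and S+P C7 against Sensitized 0.99 ± 0.29 (adjusted p = 0.00253), a call lost without Sensitized replicates 3 and 4 (0.45 ± 0.25, adjusted p = 0.191). At the Ccl5 peak 6.36 kb upstream (chr11:83427220-83428199), Naive libraries held 97.8, 125 and 100.3 normalized counts, N+P C1 libraries 105, 66.2 and 86.7 and N+P C5 libraries 122, 111 and 102. The Sensitized libraries had 413, 273, 167 and 154 and the S+P C4 libraries 269, 315, 471 and 454. The S+P C5 libraries had 259, 269, 282 and 314 and the S+P C7 libraries 422, 420.5, 507 and 606. All S+P C5 libraries were below all S+P C7 ones and overlapped S+P C4. The values were 1.22 ± 0.28 (adjusted p = 0.000205) for Sensitized against Naive and 0.80 ± 0.25 (adjusted p = 0.0307) for S+P C7 against S+P C5, the latter under the fold threshold.

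After pregnancy without a graft no member passed the thresholds. The labels name no PD1 or CD73 gate for Naive cells, so that pregnancy and the subset sorted cannot be told apart in the comparisons with Naive. In N+P C5 against Naive 0 of the 27 peaks were called in either direction (all peaks 0.00739% opening and 0% closing), 0 had an unadjusted p under 0.05 (all peaks 2361 of 13527), and edgeR called 0. Without Naive replicate 3, the Naive library that ran closer to N+P C1 (r = 0.988) than to its own group (r = 0.969), 157 peaks were called, 0 of them members. With all libraries DESeq2's filter on low means left 25 of the 27 without an adjusted p in N+P C5 against Naive, and with the filter off 0 were called (all peaks 24). The member log2 fold changes had a median of 0.06 and ran from -1.28 at the Gzma peak 10.3 kb downstream to 0.54 at the Gzmk peak 2.51 kb upstream, both peaks of few reads in these groups. In N+P C1 against Naive 0 were called (all peaks 0% and 0.00739%), 3 had an unadjusted p under 0.05 (all peaks 2571), 23 had no adjusted p, and edgeR called 0. In N+P C5 against N+P C1 0 were called (all peaks 0% in each direction), 1 had an unadjusted p under 0.05 (all peaks 308), and edgeR called 0. By the definition of a call, an absolute log2 change under the threshold of 0.9 would not have been called at any p. Recovery was simulated for Sensitized against Naive only, so that how small a change the N+P comparisons could find was not tested. Every N+P C5 library was below every Sensitized library at 20 of the 27 members and at 14.4% of all peaks. Among the peaks called opening in Sensitized against Naive, where that call goes far to fix the order, this held at 16 of 16 members and 89.6% of all 977. DESeq2 called 0 of the 10 peaks of Pdcd1 and Nt5e, the genes of the sorted PD1 and CD73, in N+P C5 against Naive. The Pdcd1 peak 3.02 kb upstream held 108, 94.6 and 92.6 normalized counts in N+P C5 and 68.9, 79.7 and 61.8 in Naive.

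The spread within Sensitized bears on each comparison that uses this group. Replicates 1 and 2 were both above replicates 3 and 4 at 23 of the 27 members and at 31.1% of all peaks. Among the peaks called opening in Sensitized against Naive this order held at 16 of 16 members and at 96.0% of all 977, so that the called members shared it with most other called peaks. Replicates 3 and 4 were both above every Naive library at 15 of the 16 and at 92.8% of the 977, a count that the call on these libraries partly fixes. The same order held at the Pdcd1 peak, with 545, 595, 169 and 215 normalized counts in replicates 1 to 4. The share of antigen-experienced cells per library was not measured, and its part in the result was not tested. Without replicates 3 and 4, 17 members opened and 1 closed (all peaks 9.44% and 5.73%), with a median log2 fold change of 2.15. Without replicates 1 and 2, 12 opened and 0 closed (all peaks 4.11% and 0.0739%), with a median of 0.82.

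**Figure D4:**
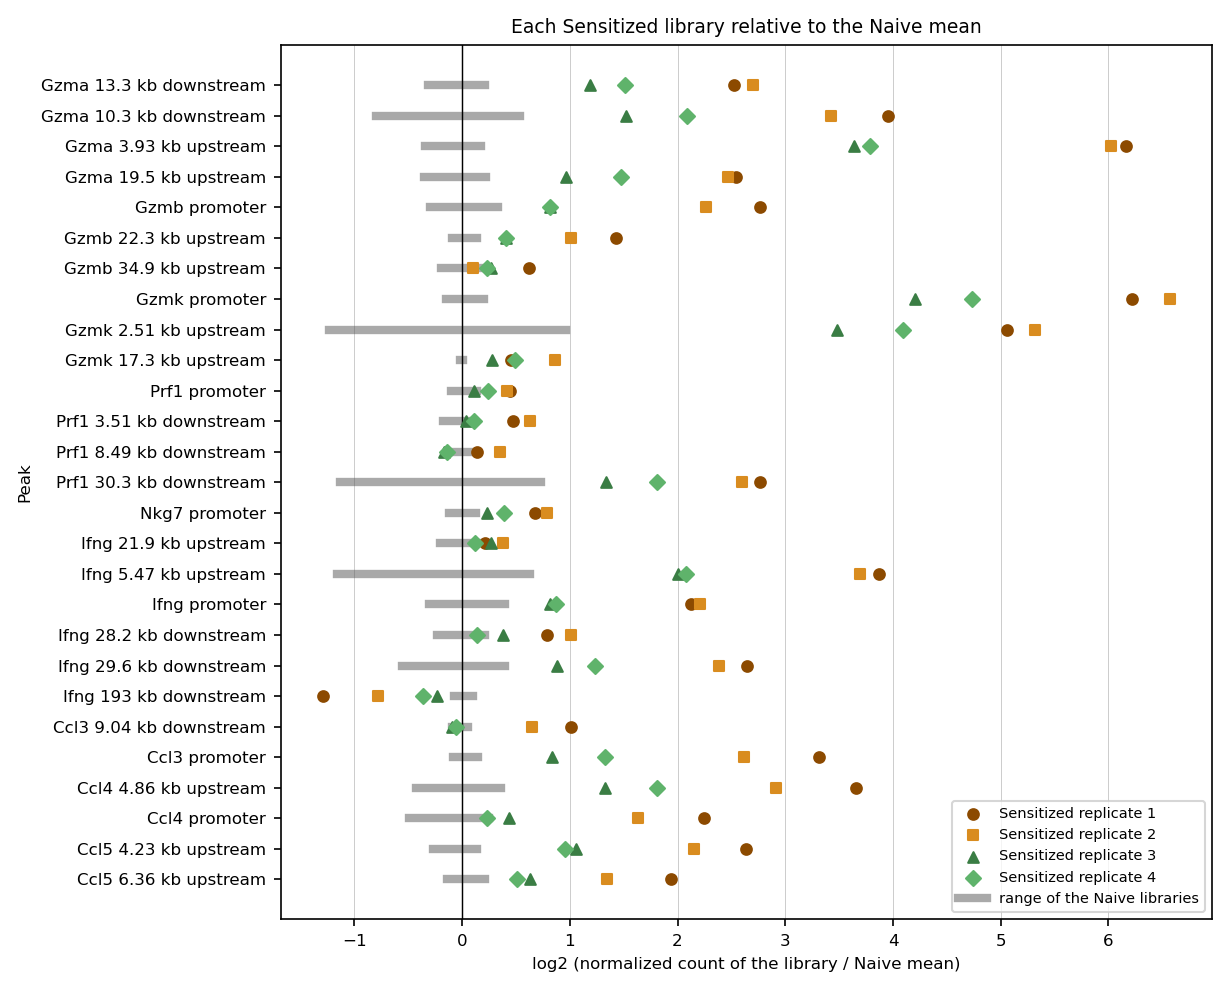
For each of the 27 peaks, the 4 symbols give the log2 ratio of 1 Sensitized library to the Naive mean, and the grey bar gives the range of the 3 Naive libraries on the same scale. Replicates 1 and 2 lie to the right of replicates 3 and 4 at the opening peaks, and the order is turned around at Ifng 193 kb downstream.

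Of the S+P subsets, S+P C7 had the most members called opening against Sensitized. Because the labels name no PD1 or CD73 gate for Sensitized cells, pregnancy and the subset sorted cannot be told apart in these comparisons. Against Sensitized, S+P C5 had 0 members opening and 1 closing (all peaks 3.08% and 3.67%), while 10 of 27 had an unadjusted p under 0.05 in either direction, beside 5101 of all 13527 peaks, and edgeR called 1. S+P C4 had 3 opening and 0 closing (all peaks 0.562% and 0.296%), namely the Gzma peaks 10.3 kb downstream and 19.5 kb upstream and the Ccl4 peak 4.86 kb upstream. S+P C7 had 12 opening and 1 closing (all peaks 3.84% and 8.03%), with 2 of 2 peaks of Ccl3, Ccl4 and Ccl5 and 3 of 4 of Gzma among the 12. The summed counts of the NK cell peaks given above were also highest in S+P C7, and their part in the result was not tested. The member medians of the log2 fold change for S+P C5, S+P C4 and S+P C7 were 0.31, 0.26 and 0.84. These 3 comparisons share the Sensitized libraries and depend on them. Calls over all peaks also moved when single Sensitized libraries were left out, not always in the same direction as the member calls. Without replicate 1 there were 7 member calls for S+P C4 (all peaks 1.94%, beside 0.858% with all libraries), 10 for S+P C5 (9.29%, beside 6.74%) and 16 for S+P C7 (14.5%, beside 11.9%). Without replicate 2 there were 2 (0.591%), 4 (7.88%) and 18 (13.1%). Without replicate 3 there were 0 (0.998%), 1 (4.61%) and 8 (10.3%), and without replicate 4 again 0 (0.784%), 1 (4.81%) and 7 (10.4%). S+P C4 also fell to 0 calls without its own replicate 4 (0.488%) and to 1 without its replicate 3 (0.599%), and S+P C5 went to 2 without its replicate 1 (8.04%) or 3 (6.39%). Without Sensitized replicates 3 and 4, S+P C7 had 2 members opening (all peaks 2.03%) and 1 closing (4.93%), S+P C5 had 0 opening (all peaks 2.16%) and 2 closing (1.09%), and S+P C4 had 0 called (all peaks 0.924% opening and 1.38% closing). In this setting the Gzma peak 10.3 kb downstream gave 0.77 ± 0.48 (adjusted p = 0.45) in S+P C4 and 0.89 ± 0.48 (adjusted p = 0.188) in S+P C7. The other S+P C7 calls lost and not given above were the Gzma peak 3.93 kb upstream at 0.55 ± 0.40 (adjusted p = 0.358), the Gzmk peak 2.51 kb upstream at 0.46 ± 0.31 (adjusted p = 0.301), the Prf1 peak 30.3 kb downstream at 0.56 ± 0.32 (adjusted p = 0.223), the Ccl4 promoter at 0.50 ± 0.31 (adjusted p = 0.268) and the Ccl5 peak 6.36 kb upstream at 0.51 ± 0.23 (adjusted p = 0.0994). Without replicates 1 and 2 the counts opening were 18 for S+P C7 (all peaks 8.31%), 16 for S+P C5 (all peaks 7.02%) and 16 for S+P C4 (all peaks 3.92%). In that setting S+P C7 had 1 closing (all peaks 9.94%), S+P C5 had 1 closing (all peaks 6.15%) and S+P C4 had 0 (all peaks 0.821%). Values of S+P C4 below 0 with all libraries turned to called openings there at the Ifng peak 5.47 kb upstream (1.04 ± 0.33, adjusted p = 0.0124) and the Gzmk promoter (1.05 ± 0.35, adjusted p = 0.0175). The 2 that opened in S+P C7 in each of these settings were the Gzma peak 19.5 kb upstream and the Ccl4 peak 4.86 kb upstream (1.17 ± 0.32, adjusted p = 0.00293 without replicates 3 and 4), and the Ifng peak 193 kb downstream closed in each.

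The comparison of S+P C7 with S+P C5 does not use Sensitized, and its libraries of like number deviated together from their group means. In it 3 members opened and 1 closed, beside 0.266% and 2.11% of all peaks. The 3 were the Gzma peak 10.3 kb downstream, the Gzmb promoter and the Ccl4 peak 4.86 kb upstream, and the closing one was the Ifng peak 193 kb downstream. These 4 rest on narrow margins: edgeR called 2 of them, and leaving out single libraries gave 0 to 4 calls. Calls over all peaks, 322 with all libraries, moved as well. Member calls fell to 0 without S+P C7 replicate 2 (all peaks 316) or S+P C5 replicate 1 (185). They fell to 1 without S+P C7 replicate 3 (240) or 4 (176) or S+P C5 replicate 3 (299). Without S+P C7 replicate 1 all 4 were kept (605). With the replicate number as a block all 4 were called, the Ifng peak at -0.95 ± 0.15 (adjusted p = 1.91e-08). At 21 of the 27 peaks S+P C7 was higher than S+P C5 in each of the 4 number pairs, against 19.7% of all peaks, and at 1 it was lower in each, against 22.3% of all peaks. The median log2 fold change was 0.42 over the members and 0.00 over all peaks. In S+P C5 against S+P C4, 0 members opened and 1 closed (all peaks 3.12% and 2.00%), 9 had an unadjusted p under 0.05 (all peaks 2786 of 13527), and edgeR called 1. That call, the Gzma peak 10.3 kb downstream, was lost with total-count scaling and without any 1 of 6 libraries. These were S+P C4 replicates 2, 3 and 4 (all peaks 619, 837 and 703 called, beside 692 with all libraries). The others were S+P C5 replicates 1, 2 and 3 (830, 487 and 607). A further call was added without S+P C4 replicate 1 (all peaks 4.01% called, beside 5.12% with all libraries). With the number as a block 1 opened and 1 closed (all peaks 3.27% and 2.22%). S+P C5 was higher than S+P C4 in each of the 4 pairs at 2 members (all peaks 2160 of 13527) and lower in each at 4 (all peaks 2269). The mean of S+P C7 was the highest of the 7 groups at 23 of the 27 peaks, against 28.8% of all peaks, and at 16 of the 16 that opened with sensitization, against 59.4% of all 977 that did. In S+P C4 the shallowest library, replicate 1, was the lowest of the 4 at 24 of the 27 members, against 36.9% of all peaks, and at 16 of the 16 opening members, against 75.2% of the 977. The 100 peaks with most counts held 7.19% of its counts and 3.46 to 4.65% in the other 24 libraries. The part of depth or of this share in the results was not tested.

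**Figure D5:**
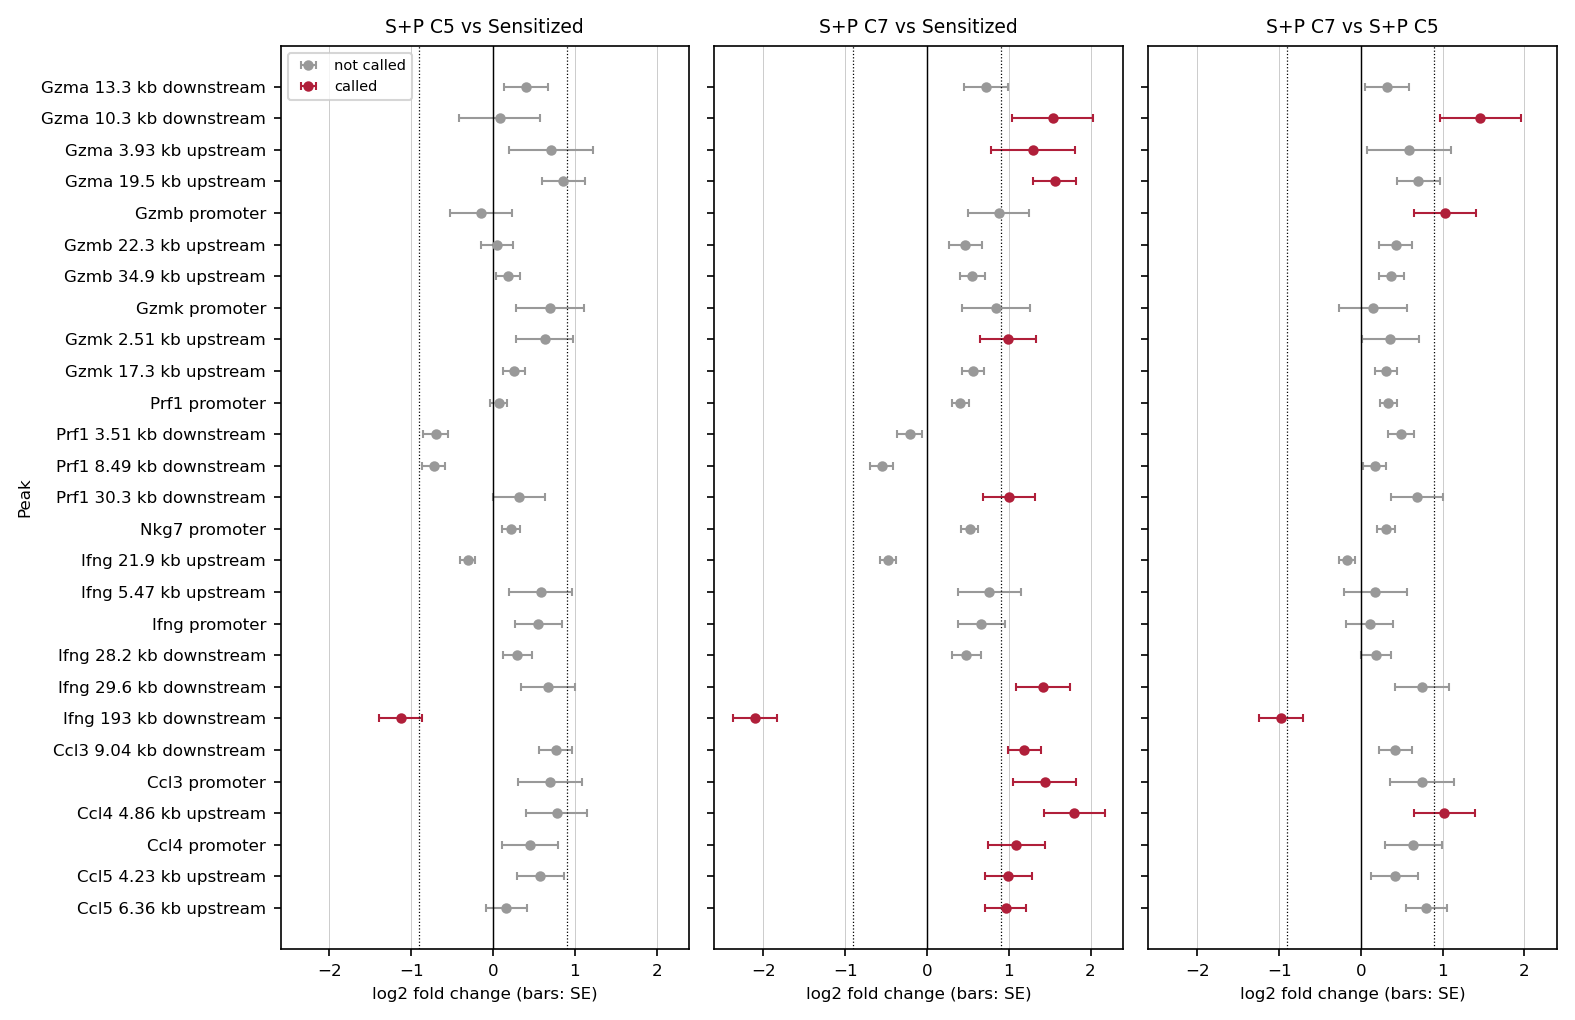
Points give the log2 fold change of each member peak with its SE for 3 comparisons, red where called and grey where not, with dotted lines at the fold threshold of 0.9 in both directions. In the middle panel 12 peaks lie called to the right, in the left panel only Ifng 193 kb downstream is called, and in the right panel most points lie to the right of 0 with 3 called.

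The change in PD1+CD73+ cells was compared between sensitized and naive mice by the interaction, the change of S+P C5 from Sensitized minus the change of N+P C5 from Naive. It called 1 member opening and 0 closing (all peaks 3.04% and 2.93%), the Ccl3 peak 9.04 kb downstream, at 1.04 ± 0.31 (adjusted p = 0.0138) on the log2 scale. That call was lost without Sensitized replicate 3 and without replicates 3 and 4 (0.65 ± 0.25, adjusted p = 0.114). Single left-out libraries gave 5 calls without Sensitized replicate 1 (all peaks 1623 of 13527, beside 807 with all libraries), 3 without N+P C5 replicate 1 (878) and 2 without S+P C5 replicate 1 (1114). Without Sensitized replicates 3 and 4 the interaction called 0 members (all peaks 1.40% opening and 0.954% closing), and without Sensitized replicates 1 and 2 it called 13 members opening and 1 closing (all peaks 9.68% and 7.78%).

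The members shared few sequence matches. In the 300 bases around each midpoint, on both strands, the T-box letters AGGTGTNA were found in 4 of the 27 windows (14.8%), at Ifng 21.9 and 5.47 kb upstream, Ccl4 4.86 kb upstream and Ccl5 6.36 kb upstream, and in 4.03% of all 13527 windows. RUNX letters TGTGGTT were in 5 (18.5%, all windows 10.8%), AP-1 letters TGANTCA in 4 (14.8%, all windows 9.16%) and ETS letters CAGGAAG in 7 (25.9%, all windows 19.0%). NFAT letters TGGAAA were in 2 (7.41%, all windows 18.1%), and TCF letters CTTTGAT in 3 (11.1%, all windows 4.06%). The Gzmb promoter held both an AP-1 and a RUNX match, printed above, and the printed stretch of the Gzma peak 3.93 kb upstream a RUNX match, while those of the Gzmk promoter, the Gzma peak 10.3 kb downstream, the Ifng promoter and the Ifng peak 193 kb downstream held none of the 6. These letters describe the windows and do not show that a factor binds.

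Other genes of the same functions were followed from lists. Of 23 further granzyme, death ligand and granule exocytosis genes 11 had peaks, 36 in all, and Gzmc to Gzmg and Gzmn had none. Sensitized against Naive, 10 of the 36 opened and 0 closed (all peaks 7.22% and 1.40%), with a median log2 fold change of 0.24. Stx11, a syntaxin of granule fusion, opened 1025 bases inside the gene by 1.43 ± 0.22 (adjusted p = 6.07e-09), and Rab27a, a GTPase that docks granules, by 2.02 ± 0.34 (adjusted p = 1.65e-07). In S+P C5 against Sensitized 4 of the 36 opened (all peaks 3.08%). Among them were 2 intergenic peaks 101.2 and 94.76 kb from the start of Fasl, which encodes the death ligand FasL, assigned by distance alone. They opened by 4.25 ± 0.44 (adjusted p = 5.24e-19) and 1.82 ± 0.32 (adjusted p = 6.84e-07).

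Of 16 other cytokine and chemokine genes 8 had peaks, 17 in all. Sensitized against Naive 9 of the 17 opened and 0 closed (all peaks 7.22% and 1.40%), the 2 with the smallest adjusted p lying near Il10, which encodes an inhibitory cytokine, at 5.58 ± 0.55 (adjusted p = 4.15e-21) and 3.10 ± 0.33 (adjusted p = 7.29e-18). In S+P C5 against Sensitized 2 of the 17 opened (all peaks 3.08%), both at Il10 (1.61 ± 0.39, adjusted p = 0.000727 and 1.47 ± 0.39, adjusted p = 0.00211). In S+P C7 against Sensitized 3 opened and 1 closed (all peaks 3.84% and 8.03%), the closing one near Il21, a helper cytokine, at -1.38 ± 0.17 (adjusted p = 4.65e-14). Of 10 receptor and interferon gamma signalling genes 9 had peaks, 37 in all, and 6 opened and 2 closed in Sensitized against Naive (all peaks 7.22% and 1.40%). An intronic peak of Jak2, a kinase of the interferon gamma receptor, opened by 3.58 ± 0.44 (adjusted p = 7.9e-14). Against Sensitized 3 of the 37 opened and 1 closed in S+P C5 (all peaks 3.08% and 3.67%), and 7 opened and 1 closed in S+P C7 (all peaks 3.84% and 8.03%). The closing peak lay near Ifngr2, a chain of that receptor, at -1.40 ± 0.33 (adjusted p = 0.000457) in S+P C5 and -2.03 ± 0.34 (adjusted p = 3.99e-08) in S+P C7. A peak of Ifngr1, the other chain, opened in S+P C7 by 0.94 ± 0.17 (adjusted p = 7.14e-07), and a peak near Ccr1, a chemokine receptor, opened in S+P C5 by 1.32 ± 0.30 (adjusted p = 0.000353).

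The peaks whose log2 counts ran most like a member over the 25 libraries are named next, each assigned by its nearest gene start. The Ccl3 promoter ran most like a peak nearest to Dennd4a (Pearson r = 0.99), the Ccl5 peak 4.23 kb upstream like one nearest to Armc7 (r = 0.99) and the Ifng peak 5.47 kb upstream like one nearest to an unnamed gene of chromosome 13 and an intronic one of Stat4 (r = 0.99 and 0.98). The Gzmk promoter ran most like a peak nearest to Lrrc27 (r = 0.99), the Ccl4 peak 4.86 kb upstream like one near Ppm1j (r = 0.98) and the Nkg7 promoter like one near Serpinb9 (r = 0.98). For Prf1 30.3 kb downstream the peak was near Cited2 (r = 0.97), for the Gzmb promoter at the start of Atp2b4 (r = 0.97) and for Gzma 10.3 kb downstream near Ttll11 (r = 0.95). The points share libraries and the large step from unsensitized to sensitized mice, so that high values are common, and 13500 peaks were searched.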

How the data were processed

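ATAC-seq was carried out by the authors on sorted T_FGS of 7 groups, and 25 libraries had a column in the count table, of 2430890 to 25419715 counts. Per the study's methods and the submitters' processing notes, reads were trimmed with cutadapt (3.4), aligned to GRCm39 with Bowtie2 (2.2.9), cleaned with Picard (2.21.8), and peaks were called per library with Genrich (0.6.1), reduced to those reproducible within a group with ChIP-R and merged with bedtools (2.27.1). The authors deposited raw counts per merged peak. The deposited peak lists by group hold a ChIP-R score, a signal value, a p-value and a q-value, and only their positions were used. No columns were taken from outside the series.

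Peaks were assigned to genes by the position of their midpoints, and their overlap with the authors' peak lists was found with bedtools (2.31.1). One DESeq2 (1.42.0) fit over the 25 libraries, with group as the only term and median-of-ratios size factors, gave Wald tests for 12 comparisons, with Benjamini-Hochberg adjustment over all peaks and fold changes not shrunken. On simulated counts for Sensitized against Naive (13527 peaks, 50 changed at each size), 50 of 50 were called at a log2 change of 2, 33 at 1 and 10 of 13327 unchanged peaks. Alternatives were edgeR (4.0.16), total-count and loess scaling, a mean raw count of at least 200, no independent filter, the compared groups alone, the replicate number as a block and leaving out libraries. The block was always fitted on the compared groups alone, so that it also changed the libraries from which the spread was estimated. Sequences were read with pysam (0.24.0) from GRCm39.

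Libraries of like number deviated together in S+P C5 and S+P C7 (r = 0.52 to 0.77 per pair), S+P C4 and S+P C5 (0.10 to 0.57), S+P C4 and S+P C7 (0.06 to 0.67) and N+P C1 and N+P C5 (0.11 to 0.40). This was taken as pairing, although 2 of 4 S+P C4 libraries correlated more with another number in S+P C5. S+P C4 replicate 2 also did so in S+P C7 (0.18, beside 0.06 with its own number), a comparison for which no fit was run. Pairing was not taken across Naive and Sensitized (0.03 to 0.20) or Sensitized and S+P C5 (-0.61 to 0.36). Counts per library were given for every member called in a comparison and for the member nearest to each gene start, other members by their range, and up to 2 called peaks per list and comparison by the smallest adjusted p. For likeness, peaks with a mean normalized count of at least 50 were ranked on log2(normalized count + 1). The members and lists were chosen with earlier results of these data known.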

Additional observations from a re-analysis of the deposited data

Results flagged for a closer look

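In 9 of 108 groups of 4 libraries, 1 library stood far from the other libraries of its group by Dixon's test at the 95% level, where chance flags about 1 in 20 groups. In S+P C7 these were the highest libraries at the Gzma peak 13.3 kb downstream (700.9 normalized counts), the Ifng peak 28.2 kb downstream (623.0) and the Ifng peak 193 kb downstream (265.4), and the lowest library at the Ccl4 promoter (475.4). In S+P C5 they were the highest libraries at the Gzma peak 3.93 kb upstream (298.5) and the Prf1 peak 30.3 kb downstream (389.6) and the lowest at the Prf1 peak 8.49 kb downstream (292.3). In S+P C4 they were the lowest libraries at the Gzmb peak 34.9 kb upstream (276.5) and the Prf1 peak 3.51 kb downstream (173.5).

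The difference of PD1+CD73+ cells after birth from the group without pregnancy (S+P C5 from Sensitized, N+P C5 from Naive) was not the same in sensitized and naive mice at the Ccl3 peak 9.04 kb downstream, with an interaction of 1.042 on the log2 scale. The labels name no PD1 or CD73 gate for the groups without pregnancy. Without Sensitized replicates 3 and 4 the interaction passed neither threshold (0.65, adjusted p = 0.114, DESeq2).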

How the results depend on the processing

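Of 77 calls of member peaks, 52 held under every alternative run, 25 were lost under at least 1 and 0 changed sign. Of 126 values with an adjusted p under 0.1, 1 changed sign: the Gzmk promoter in S+P C7 against Sensitized, -0.15 with loess offsets beside 0.85, and the cause was not tested. Leaving out single libraries gave 14 to 17 calls in Sensitized against Naive, 0 to 7 for S+P C4 against Sensitized, 1 to 10 for S+P C5 and 7 to 18 for S+P C7 against the same, 20 to 20 in S+P C5 against N+P C5, 18 to 20 in S+P C4 against N+P C1, 0 to 2 in S+P C5 against S+P C4, 0 to 4 in S+P C7 against S+P C5, 0 to 5 in the interaction and 0 to 0 in the 3 N+P comparisons.

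The settings without pairs of Sensitized libraries were chosen after seeing the data. Without replicates 3 and 4 there were 0 calls for S+P C4 against Sensitized, 2 for S+P C5, 3 for S+P C7 and 0 in the interaction. Without replicates 1 and 2 there were 16, 17, 19 and 14. With loess offsets there were 8 calls in S+P C7 against Sensitized (all peaks 1438, beside 1605 in the main fit), 4 in S+P C5 against S+P C4 (699, beside 692) and 2 in the interaction (884, beside 807). Openings over all peaks were 264, 274 and 209 there, beside 519, 422 and 411. With total counts there were 0 in S+P C5 against S+P C4 (all peaks 676), with edgeR 2 in S+P C7 against S+P C5 (276, beside 322), and with the compared groups alone 0 in S+P C4 against Sensitized (40, beside 116).

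With the replicate block, fitted on the compared groups alone, there were 0 calls for S+P C4 against Sensitized (all peaks 47, beside 116 in the main fit) and 5 for S+P C5 (838, beside 912), where the libraries share only a number. There were 2 in S+P C5 against S+P C4 (742, beside 692) and 2 in the interaction (837, beside 807). No other count of member calls moved by over 1.5 times in this fit. Peaks with few reads in Naive, such as those of Gzmk and Gzma, have folds of wide error. Changes under the fold threshold are not called at any number of libraries.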
